A study of Mus musculus with 3 samples.

Results

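The comparison described here set spleen T cells of aged mice given fumarate against spleen T cells of aged mice given vehicle, across all 17796 genes of the deposited table. It rests on 2 of the 3 libraries of the study, each the only library of its group. The mice were C57BL/6, and the age stated for the aged animals was 24 months, and it is not said if this was before or after treatment. Fumarate was given at 10 mg/kg, 3 times a week over the 2 months before T cells were taken, and the other aged animals had vehicle on that course. The third library, from young mice of 2 months labelled as vehicle, is given beside the pair as a description. All cells were then cultured for 3 days with plate-bound antibodies to CD3 (2 ug/ml) and CD28 (5 ug/ml), with 100 IU/ml interleukin 2 and 10% serum, so each library shows activated cells at the end of that culture. The fumarate was given to the animals, and no fumarate is named among the culture additions. How many mice gave cells to each library, and whether they were pooled, is not stated.

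Fumarate is an intermediate of the tricarboxylic acid cycle, made from succinate by succinate dehydrogenase and turned into malate by fumarate hydratase. At high levels it can modify cysteines of KEAP1, the protein that holds the transcription factor NRF2 in check, and it can compete with 2-oxoglutarate at dioxygenases such as the HIF prolyl hydroxylases. Activated T cells are known to switch to aerobic glycolysis, to divide, and to secrete interferon gamma and granzymes. Interferons act through IRF and other transcription factors on response elements in the promoters of guanylate binding proteins, immunity-related GTPases, antiviral effectors and antigen presentation genes. Such interferon-inducible genes are made by T cells themselves and by most other cells of the spleen.

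Several interferon-inducible promoters are shown first, because many interferon-inducible genes were lower in the fumarate library. Each sequence is the 250 bases before the start of the gene in RefSeq (GRCm38.p6, the build also called mm10), written 5′ to 3′ on the strand of the gene. Capitals mark matches to the interferon-stimulated response element letters GAAANNGAA, searched on both strands. The genes encode the chemokines CXCL9 and CXCL10, the ubiquitin-like protein ISG15, guanylate binding protein 2 and the GTPase IGTP.
Cxcl9, chr5:92328080-92328329, minus strand: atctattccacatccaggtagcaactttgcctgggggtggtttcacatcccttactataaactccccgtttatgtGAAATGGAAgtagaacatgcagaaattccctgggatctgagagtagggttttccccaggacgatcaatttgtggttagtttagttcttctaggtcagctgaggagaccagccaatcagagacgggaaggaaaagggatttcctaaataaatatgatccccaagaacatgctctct
Cxcl10, chr5:92348890-92349139, minus strand: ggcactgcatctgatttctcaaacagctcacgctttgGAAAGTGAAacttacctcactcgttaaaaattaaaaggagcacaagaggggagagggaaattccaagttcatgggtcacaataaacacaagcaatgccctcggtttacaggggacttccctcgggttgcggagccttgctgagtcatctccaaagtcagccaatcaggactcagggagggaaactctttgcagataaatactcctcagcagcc
Isg15, chr4:156200819-156201068, minus strand: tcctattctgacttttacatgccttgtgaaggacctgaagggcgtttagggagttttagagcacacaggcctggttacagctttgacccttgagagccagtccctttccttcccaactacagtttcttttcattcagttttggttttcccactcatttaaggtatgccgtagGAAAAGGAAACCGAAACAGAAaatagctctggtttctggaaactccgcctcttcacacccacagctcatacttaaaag
Gbp2, chr3:142620413-142620662, plus strand: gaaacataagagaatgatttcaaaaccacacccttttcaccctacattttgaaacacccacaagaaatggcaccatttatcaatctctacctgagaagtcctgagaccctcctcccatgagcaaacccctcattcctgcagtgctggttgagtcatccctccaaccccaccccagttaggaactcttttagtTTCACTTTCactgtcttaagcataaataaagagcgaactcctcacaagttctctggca
Igtp, chr11:58199306-58199555, plus strand: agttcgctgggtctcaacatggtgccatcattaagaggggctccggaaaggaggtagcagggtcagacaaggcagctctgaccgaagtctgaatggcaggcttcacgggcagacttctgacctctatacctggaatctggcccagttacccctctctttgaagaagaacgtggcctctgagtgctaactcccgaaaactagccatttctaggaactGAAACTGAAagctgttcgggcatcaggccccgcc
Isg15 holds 3 overlapping matches, beginning 78, 72 and 66 bases before the start, and the other promoters hold 1 each.
The matches begin 175 bases before the start in Cxcl9, 213 in Cxcl10, 58 in Gbp2 and 34 in Igtp. A match is a description of letters and not a proven binding site.

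Levels are in CPM (reads after each library was brought to a total of 1000000), and differences are log2 ratios of CPM + 1, fumarate over vehicle, so a negative ratio means a lower level with fumarate. For low genes the 1 shrinks the ratio. The estimated depth of the vehicle, fumarate and young libraries was 17.3, 13.9 and 40.99 M reads. With 1 library per group there is no replicate check and no test, and the spread between mice was not measured. Intervals at the 95% level are Clopper-Pearson intervals on estimated reads, refer to plain log2 CPM ratios, and cover counting error alone. CPM are not corrected for transcript length, so levels are compared between libraries for the same gene and not between genes. Where 3 values follow each other without labels they are those of the vehicle, fumarate and young libraries, and a pair is vehicle and fumarate.

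The T cell label held in all 3 libraries. All 8 defining T cell markers, among them the CD3 chains, CD4, CD8 and the kinases LCK and ZAP70, were at 77.1 CPM or more in every library, and they summed to 1389 CPM in the vehicle, 1703 CPM in the fumarate and 1773 CPM in the young library. The vehicle library also held defining markers of platelets, red cells, basophils and other lineages, as given below. In bulk RNA, fewer cells of a type and less RNA per cell cannot be told apart.

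Most genes had similar levels in the aged libraries. Of 13815 genes whose mean reached 1 CPM, 86.1% were within 1.5-fold and the median log2 ratio was −0.027. The differences that did exist were mostly toward lower levels with fumarate: 1045 of 17796 genes (5.87%) were at least 2-fold lower and 46 (0.258%) at least 2-fold higher. The genes 2-fold lower took 3.01% of all CPM in the vehicle, 0.668% in the fumarate and 0.679% in the young library. At the 1.5-fold limit used for gene lists below, with a mean of at least 1 CPM, 1626 genes (11.8%) were lower and 301 (2.18%) higher. With the libraries scaled to the median of 20 T cell identity genes, described below, these counts were 2257 and 118. Each list count is read beside these percentages, and past 1.5-fold describes size and not a test.

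**Figure D1:**
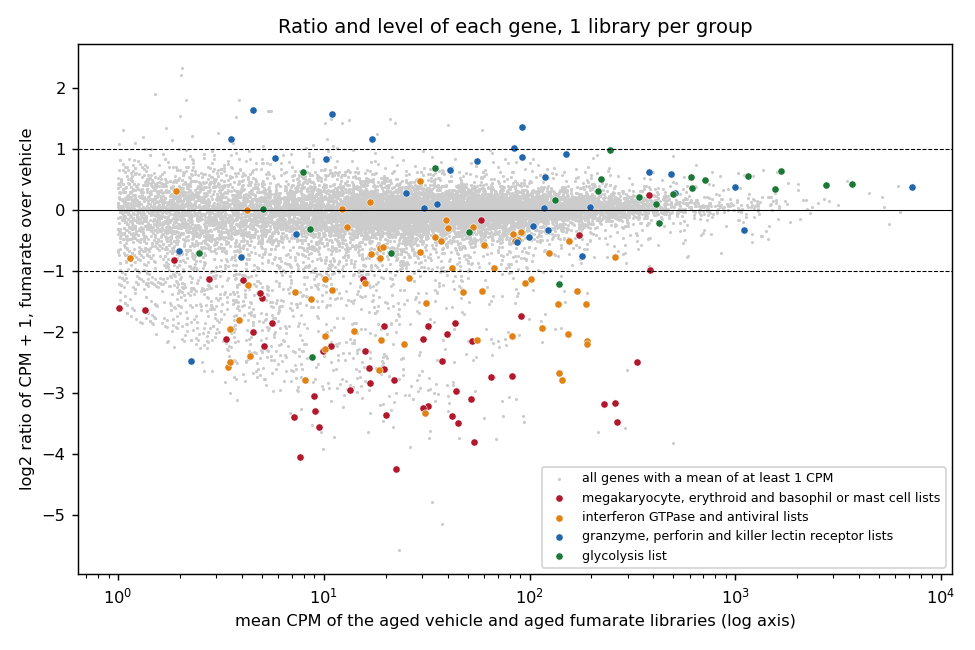
Log2 ratio of CPM + 1, fumarate over vehicle (vertical axis), against the mean CPM of the aged vehicle and aged fumarate libraries (log horizontal axis), 1 point per gene with a mean of at least 1 CPM. Dashed lines mark 2-fold; lineage markers (red) and interferon genes (orange) lie mostly below 0, while granule, lectin receptor and glycolysis genes (blue, green) lie mostly near or above it. The granule median falls to −0.021 with scaling to T cell identity.

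The share of genes past 2-fold fell as the level rose. Between 1 and 10 CPM, 585 of 4156 genes (14.1%) were 2-fold lower and 27 (0.65%) higher. Between 10 and 50 CPM, 301 of 5039 (5.97%) were lower and 13 (0.258%) higher. From 50 to 200 CPM the counts were 72 (1.99%) and 3 (0.0827%) of 3626. At 200 CPM or more, 9 of 994 genes were 2-fold lower and 0 higher, and at 1.5-fold 22 were lower and 16 higher. Genes with low and middle levels carried most of the lower counts.

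Markers of platelets and their precursors, red cells, basophils, mast cells and blood progenitors were several-fold lower in the fumarate library. Of 22 megakaryocyte and platelet genes, 20 were at least 1.5-fold lower and 0 higher (median log2 ratio −2.30), and their summed level was 3471 CPM in the vehicle, 837 CPM in the fumarate and 311 CPM in the young library. Pf4, which encodes platelet factor 4, was at 468 CPM in the vehicle, 51.3 CPM in the fumarate and 3.17 CPM in the young library. Itga2b and Itgb3, the chains of the platelet fibrinogen receptor, were at 416 and 44.97 CPM and at 566 and 99.8 CPM in the vehicle and fumarate libraries. The 3 genes had young levels of 3.17, 3.42 and 30.9 CPM, so the fumarate library lay between the others for each. Vwf, which encodes von Willebrand factor, was at 143, 20.9 and 0.732 CPM. Thbs1, which encodes the platelet granule protein thrombospondin 1, was at 492, 43.6 and 2.34 CPM, which is a log2 ratio of −3.47 (interval of the plain ratio −3.62 to −3.38). The members within 1.5-fold were Selp (197 and 149 CPM), the adhesion receptor P-selectin, and Slamf1 (61.7 and 54.9 CPM), a receptor that T cells carry too.

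All 17 of 17 erythroid genes with a mean of at least 1 CPM were lower, with a median of −2.77. Of the 20 measured, 10 were under 1 CPM in the fumarate library and 3 in the vehicle. Part of the 17 thus passed the limit through the vehicle library alone, and the median over all 20 was −2.16. Ermap was listed at 0 in the fumarate library, which allows up to 3 reads. The beta globin gene Hbb-bs was at 43.4 CPM in the vehicle, 1.35 CPM in the fumarate and 0.101 CPM in the young library, and its neighbour Hbb-bt at 37.6, 2.77 and 0.0453 CPM. These copies are near-identical, and how reads were divided between them is uncertain. Car2, which encodes carbonic anhydrase 2, was at 101, 6.35 and 0.927 CPM. Tal1 and Gfi1b, transcription factors of the red cell and megakaryocyte lines, were at 77.6 and 6.57 CPM and at 38.9 and 4.84 CPM. Erythroid promoters are known for GATA sites. The upstream bases of Hbb-bs in RefSeq, with the letters AGATAA in capitals 210 bases before the start, show 1 match.
Hbb-bs, chr7:103827929-103828178, minus strand: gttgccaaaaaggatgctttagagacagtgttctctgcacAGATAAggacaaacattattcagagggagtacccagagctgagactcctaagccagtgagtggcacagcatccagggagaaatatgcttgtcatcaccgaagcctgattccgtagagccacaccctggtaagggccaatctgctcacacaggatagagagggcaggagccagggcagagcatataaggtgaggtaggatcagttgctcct
The letters were found on either strand in 5 of 15 erythroid promoters and 6 of 13 basophil and mast cell promoters, in 5 of 16 platelet promoters and in 1 of 14 promoters of blood stem and progenitor genes. Over all 27025 RefSeq promoters, in windows from 250 bases before to 50 after the start, the share was 12.7%. Over the promoters of genes in the table it was 8.47%. It was 11.2% for genes 1.5-fold lower, 12.4% for those 1.5-fold higher and 7.44% for those within 1.5-fold.

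Blood stem and progenitor genes were lower in 14 of 16 cases (median −2.80). Gata2, a transcription factor of progenitors and mast cells, was at 113 CPM in the vehicle, 16.2 CPM in the fumarate and 0.122 CPM in the young library, and Gata1, its relative in red cells and megakaryocytes, at 51.8, 5.77 and 0.829 CPM. Both were highest in the vehicle library. Lmo2, a cofactor that bridges TAL1 and GATA factors, was at 96.8 and 11.6 CPM, and Cd34, the progenitor surface marker, at 24.3 and 2.45 CPM. Of 13 basophil and mast cell genes, 12 were lower (median −2.58). Mcpt8, a basophil protease, was at 86.7 CPM in the vehicle, 18.9 CPM in the fumarate and 0.122 CPM in the young library, Cpa3, the mast cell carboxypeptidase, at 64.1, 14.9 and 0.0976 CPM, and Fcer1a, the alpha chain of the high-affinity IgE receptor, at 34.2, 4.84 and 0.0244 CPM. Il4ra, the interleukin 4 receptor chain shared with T cells, was the member within 1.5-fold, at 348 and 416 CPM.

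Other leukocyte lists were lower in part. The 4 neutrophil granule genes with a mean of at least 1 CPM were all lower, led by Ctsg, which encodes cathepsin G, at 44.8 CPM in the vehicle, 4.62 CPM in the fumarate and 0.0244 CPM in the young library. Of the 11 measured, 10 were under 1 CPM in the fumarate library and 2 in the vehicle. Most of the 4 thus passed the limit through the vehicle library alone, so their count is no evidence of a difference. The median of −1.97 became −1.07 over all 11. Macrophage and monocyte genes were lower in 5 of 10 cases (median −0.65, which became 0.077 over genes with a mean of at least 10 CPM), with Lyz2, the macrophage lysozyme, at 9.38 and 0.722 CPM and Ctss, a lysosomal protease, at 50.5 and 53.3 CPM. NK and innate lymphoid genes were lower in 7 and higher in 2 of 14 cases (median −0.49, or 0.037 at a mean of at least 10 CPM). Within that list Fcgr3, an IgG receptor, was at 13.4 and 1.73 CPM and Il1rl1, the interleukin 33 receptor, at 34.5 and 5.77 CPM, while Eomes, a transcription factor of NK and killer T cells, was at 26.9 and 47.4 CPM. Dendritic cell genes were lower in 4 and higher in 1 of 11 cases (median −0.30).

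B cell genes stood apart from these lists. Of 7 with a mean of at least 1 CPM, 1 was lower and 0 higher (median 0.12), and the 6 defining markers summed to 15.5 CPM in the vehicle and 15.6 CPM in the fumarate library. The member that was lower was Cd79b, a chain of the B cell receptor, at 4.63 and 1.37 CPM. Immunoglobulin constant genes were nonetheless lower in 9 of 9 cases, summing to 465, 103 and 142 CPM in the vehicle, fumarate and young libraries. Of all 11 measured, 5 were under 1 CPM in the fumarate library and 1 in the vehicle, and the median over the 11 was −1.40. Igkc, the kappa light chain constant gene, was at 127 CPM in the vehicle, 26.9 CPM in the fumarate and 4.05 CPM in the young library. Ighm, the mu heavy chain constant gene, was at 212, 54.1 and 135 CPM. The plasma cell gene Jchain, which joins secreted IgM and IgA, was at 12.4 and 2.60 CPM, while Irf4, a factor of plasma cells and activated T cells, was at 419 and 435 CPM.

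**Figure D2:**
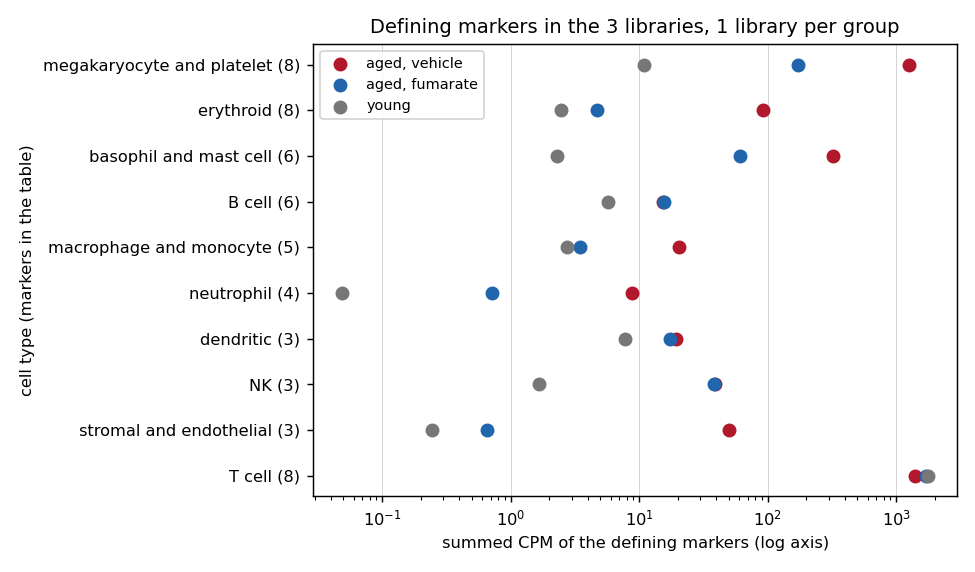
Summed CPM of the defining markers of each cell type (log axis) in the aged vehicle (red), aged fumarate (blue) and young (grey) library, 1 point per library, with the number of markers in the table after each name. Platelet markers summed to 1248, 172 and 10.9 CPM in the vehicle, fumarate and young libraries, while the T cell markers summed to similar levels in all 3.

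Over all other-lineage lists, 92 of 130 genes with a mean of at least 1 CPM were lower and 3 higher. Of the 166 measured, 54 were under 1 CPM in the fumarate library and 27 in the vehicle, so some of the 130 entered through the vehicle library alone. The defining markers summed to 91.8 and 4.67 CPM for red cells, to 321 and 60.7 CPM for basophils and mast cells, and to 20.5 and 3.46 CPM for macrophages and monocytes. NK markers, most of whose sum was the granzyme gene Gzma, summed to 39.0 and 38.3 CPM and dendritic markers to 19.3 and 17.3 CPM, close to equal. Adgre1 and C1qb of macrophages and S100a8, S100a9 and Elane of neutrophils were listed at 0 in the fumarate library. These markers were lower beside every gene group that is lower below, and their part in those differences was not tested.

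Interferon-inducible genes were lower in the fumarate library across several families. Of 20 interferon-inducible GTPases, which attack the vacuoles of intracellular microbes, 19 were lower and 0 higher (median −1.43), against 11.8% and 2.18% of all genes. Their summed level was 2781 CPM in the vehicle, 958 CPM in the fumarate and 2476 CPM in the young library. Iigp1 was at 251 CPM in the vehicle, 35.7 CPM in the fumarate and 198 CPM in the young library. Igtp was at 329, 192 and 433 CPM, and Irgm1, a regulator of these GTPases, at 205, 70.1 and 146 CPM. For each of these 3 genes the fumarate library was the low one, and the vehicle and young libraries lay above it. Platelet, erythroid and basophil markers in the young library summed to 10.9, 2.46 and 2.32 CPM. The part of other-lineage cells in the GTPase difference was not tested.

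Guanylate binding proteins followed the same direction in both gene clusters. Gbp2 was at 279 CPM in the vehicle, 96.0 CPM in the fumarate and 400.3 CPM in the young library, a log2 ratio of −1.53 (interval of the plain ratio −1.63 to −1.45). Gbp6 was at 133, 31.1 and 87.6 CPM and Gbp7 at 182, 47.1 and 83.2 CPM. In the gene cluster on chromosome 3 (142493978 to 142638008) 4 of 4 genes with a mean of at least 1 CPM were lower, and on chromosome 5 (105115767 to 105293698) 4 of 4 were lower. Gbp8, at 15.9 and 17.7 CPM, was the GTPase gene within 1.5-fold. Tgtp1 and Tgtp2, copies alike enough to share reads and so uncertain one by one, were at 247 and 60.1 CPM and at 312 and 70.2 CPM.

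**Figure D3:**
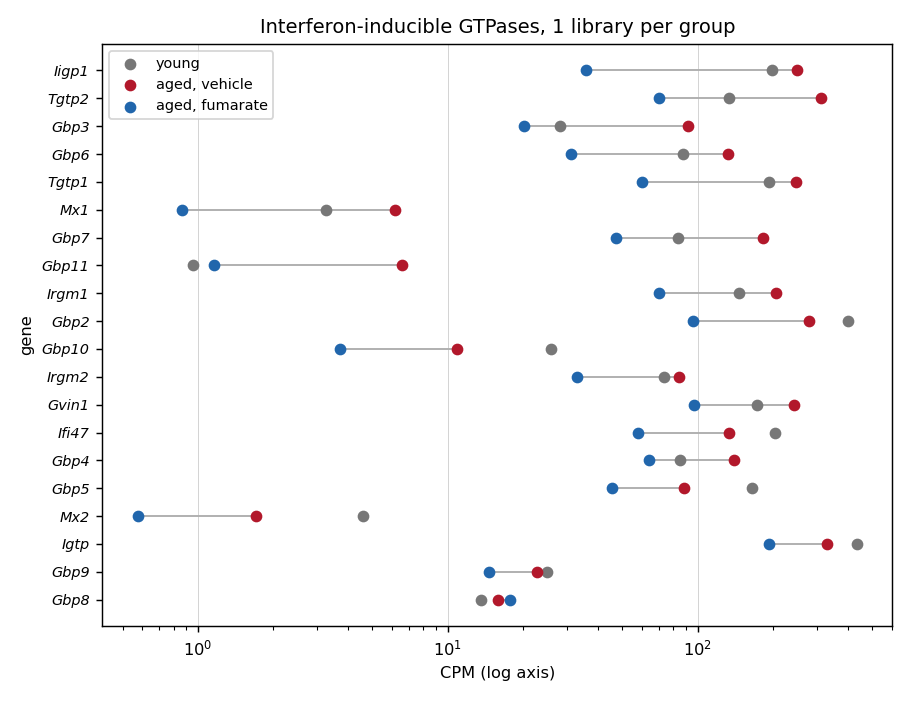
CPM of the 20 interferon-inducible GTPase genes (log axis) in the aged vehicle (red), aged fumarate (blue) and young (grey) library, 1 point per library, with a line joining the aged pair. The blue point lies left of the red one for every gene except Gbp8, and the 20 genes summed to 2781, 958 and 2476 CPM in the vehicle, fumarate and young libraries.

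Antiviral genes of the type I interferon response were lower for 27 of 43 members and higher for 0 (median −0.95). Isg15, whose promoter is shown above, was at 31.6 CPM in the vehicle, 6.50 CPM in the fumarate and 27.8 CPM in the young library. Oasl2, a member of the 2′-5′ oligoadenylate synthetase family, was at 57.5, 4.84 and 3.29 CPM, and Rsad2, which encodes the antiviral enzyme viperin, at 17.6, 2.82 and 1.98 CPM. The fumarate library was well below the vehicle library for each, whereas the young library was high for Isg15 and low for Oasl2 and Rsad2. Ifitm1 and Ifitm3, membrane proteins that block viral entry, were at 242, 37.2 and 1.54 CPM and at 312, 67.1 and 16.4 CPM in the vehicle, fumarate and young libraries. Ifi27l2a (12.2 and 12.3 CPM) and Slfn1 (24.3 and 34.1 CPM) were among the members within 1.5-fold. Of the antiviral and GTPase genes that have a RefSeq promoter and a mean of at least 1 CPM, 29 hold the response element letters and 14 do not, and 21 and 10 of them were lower, with medians of −1.13 and −1.21. With no limit on the level, the letters were in 9 of 10 GTPase promoters and 22 of 35 antiviral promoters, against 9.76% of all RefSeq promoters. Over all genes they were in 11.4% of the promoters of those 1.5-fold lower, 11.3% of those 1.5-fold higher and 8.17% of those within 1.5-fold. The letters were thus about as common in higher as in lower genes.

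Among the factors that drive this programme, Irf7, the interferon-induced amplifier of the type I response, was at 28.8 CPM in the vehicle, 4.04 CPM in the fumarate and 17.7 CPM in the young library, a log2 ratio of −2.56 (interval of the plain ratio −3.26 to −2.43). Irf1, an early factor of the interferon gamma response, was at 169, 85.6 and 176 CPM. For both genes the fumarate library was the lowest of the 3. Irf9, a DNA-binding factor of the type I response, was at 41.8 and 33.1 CPM and within 1.5-fold. Of the 22 signalling genes, 5 were lower and 2 higher (median −0.16), against 7 lower and 0 higher with scaling to T cell identity. The higher ones were Ifngr1, the ligand-binding chain of the interferon gamma receptor, at 64.2 and 99.5 CPM, and Irf8, a factor of myeloid and lymphoid cells, at 146 and 238 CPM. Ifng itself, the gene for interferon gamma, was at 2012, 2268 and 247 CPM. Its log2 ratio of 0.17 (interval of the plain ratio 0.15 to 0.20) was positive as deposited and lay below 0 with scaling to T cell identity.

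Chemokines induced by interferon were lower as well, and Cxcl9 had one of the lowest ratios of the table. Cxcl9 was at 65.9 CPM in the vehicle, 1.44 CPM in the fumarate and 0.0732 CPM in the young library and Cxcl10 at 49.3, 4.91 and 3.98 CPM, log2 ratios of −4.78 (interval of the plain ratio −6.23 to −4.88) and −3.09 (interval of the plain ratio −3.71 to −2.97). Both attract CXCR3-bearing T cells. The young library was low for both as well. Of 14 chemokine ligands with a mean of at least 1 CPM, 10 were lower and 0 higher (median −0.87, or −0.57 with 5 CPM added in place of 1). Among the 17 measured, 7 were under 1 CPM in the fumarate library and 1 in the vehicle. Part of the 14 thus passed the limit through the vehicle library alone. Ccl5, which killer T cells secrete, was at 282, 192 and 10.2 CPM, and Xcl1, which attracts cross-presenting dendritic cells, at 65.4, 35.6 and 45.4 CPM. Ccl3, Ccl4 and Ccl9 were within 1.5-fold, with Ccl3 at 541 and 421 CPM. Ccl6, a chemokine of myeloid cells, was at 60.6, 10.2 and 0.0244 CPM.

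Antigen presentation genes divided by class. MHC class II genes were lower in 9 of 12 cases (median −1.86), with H2-Aa at 72.2 CPM in the vehicle, 7.87 CPM in the fumarate and 2.68 CPM in the young library, Cd74, the invariant chain, at 226, 58.6 and 67.9 CPM, and Ciita, the master activator of the class II genes, at 13.8, 1.59 and 0.390 CPM. These genes belong to professional antigen-presenting cells and are also induced by interferon gamma. Defining markers of dendritic cells summed to 19.3 and 17.3 CPM, of macrophages and monocytes to 20.5 and 3.46 CPM, and of B cells to 15.5 and 15.6 CPM, and their part in the class II difference was not tested. MHC class I and immunoproteasome genes were lower for 5 of 23 members and higher for 0, with a smaller median of −0.46. With scaling to T cell identity 14 of them were lower (median −0.67), against 9 class II genes (median −2.04). H2-K1, a classical class I heavy chain, was at 1554, 1156 and 1319 CPM, B2m, its light chain, at 1422, 991 and 1126 CPM, and Psmb10, an immunoproteasome subunit, at 129, 65.9 and 62.9 CPM. Psmb8, another immunoproteasome subunit, was at 354 and 325 CPM, and H2-D1 at 1684 and 1531 CPM, both within 1.5-fold. H2-Q10, a class I gene outside that list, was higher, at 21.7 and 58.9 CPM, and reads can be shared among the near-identical H2-Q genes.

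Sensors of nucleic acids and inflammasome genes were lower for 9 of 16 members and higher for 0 (median −0.85). The median was −0.41 over all 22 measured, −0.44 with 5 CPM added in place of 1, and −0.93 at a mean of at least 10 CPM. Il1b, which encodes interleukin 1 beta, was at 20.3 CPM in the vehicle, 1.44 CPM in the fumarate and 0.0732 CPM in the young library, and Casp1, the protease that matures it, at 54.2, 25.5 and 9.44 CPM. Ifi203, an interferon-inducible DNA-binding protein, was at 29.3, 6.35 and 27.1 CPM. The myeloid gene Il1b was near 0 in the young library, whereas Ifi203 was about as high there as in the vehicle library. Sting1, the adaptor of cytosolic DNA sensing, was at 125 and 152 CPM, and Cgas, the DNA sensor upstream of it, at 23.9 and 28.1 CPM, neither past 1.5-fold. Over all interferon lists, 73 of 135 genes were lower and 2 higher.

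T cell identity genes themselves had slightly higher shares of the fumarate library. Of 20 genes, 0 were lower and 0 higher at 1.5-fold, with a median of 0.21, a value that is 0 by construction when the libraries are scaled to this list. Cd3e was at 77.1 CPM in the vehicle, 106 CPM in the fumarate and 115 CPM in the young library, Cd2, an adhesion receptor, at 198, 295 and 327 CPM, and Thy1 at 988, 1453 and 752 CPM. Scaling to this list moves the median of all genes from −0.027 to −0.23, and the higher and lower counts below are relative to the deposited scaling. Cd4 was at 180.1, 181 and 238 CPM and Cd8a at 187 CPM in the vehicle, 218 CPM in the fumarate and 229 CPM in the young library, so the aged libraries had similar levels of both lineage genes. Among the 10 CD4 and CD8 lineage genes the median was 0.11, which turned to −0.11 with scaling to T cell identity, and 1 was lower, Izumo1r, the folate receptor of regulatory and anergic T cells, at 12.7 and 3.68 CPM.

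Part of the cytotoxic genes had higher levels with fumarate. Of 22 granzyme, perforin and granule genes, 7 were higher and 2 lower (median 0.19). With scaling to T cell identity 4 were higher and 4 lower, with a median of −0.021. As deposited, their summed level was 10873 CPM in the vehicle, 13329 CPM in the fumarate and 5000.4 CPM in the young library. Gzmb, the main granule protease of killer T cells, was at 6290.5 CPM in the vehicle, 8201 CPM in the fumarate and 3098 CPM in the young library, a log2 ratio of 0.38 (interval of the plain ratio 0.37 to 0.39) that stays within 1.5-fold. Prf1, the pore-forming perforin, was at 301, 465 and 65.9 CPM, and Fasl, the death ligand, at 31.6, 50.2 and 46.8 CPM. The fumarate library was the high one for each. Gzmd and Gzme, granzymes alike enough to share reads and so uncertain one by one, were at 104, 198 and 1.22 CPM and at 55.5, 113 and 0.854 CPM. Serpinb9b, a granzyme inhibitor, was at 50.7, 132 and 4.12 CPM, which is a log2 ratio of 1.37 (interval of the plain ratio 1.27 to 1.501). The lower genes were Lamp1, a lysosome and granule membrane protein, at 227 and 134 CPM, and Gzmk, at 2.66 and 1.30 CPM.

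Killer lectin-like receptors, which NK cells and activated CD8 T cells carry, were mostly higher, with 7 of 11 higher and 2 lower (median 0.85), the same counts as with scaling to T cell identity. Klrk1, the activating receptor NKG2D, was at 64.2 CPM in the vehicle, 119 CPM in the fumarate and 84.5 CPM in the young library, and Klrd1, the CD94 partner of the NKG2 receptors, at 39.9, 71.0 and 24.5 CPM. Klra3 was at 5.04, 17.0 and 1.0003 CPM and Klra7 at 10.1, 24.1 and 3.27 CPM, whereas Klra8 was at 4.51 CPM in the vehicle and listed at 0 in the fumarate library. The Klra genes are near-identical copies, so their separate levels are uncertain. Defining NK markers summed to 39.0 and 38.3 CPM, and most of this was the granzyme gene Gzma, at 30.2 and 31.0 CPM. The remaining NK markers in the table belong to the lectin-like receptor family themselves, so the sum cannot show the NK content of the libraries. The part of NK cells in the lectin receptor difference was not tested.

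Effector transcription factors were mixed. Of 21, 4 were higher and 2 lower (median 0.14), against 3 lower and 1 higher with scaling to T cell identity (median −0.068). Eomes was at 26.9 CPM in the vehicle, 47.4 CPM in the fumarate and 29.7 CPM in the young library, and Batf3, a factor of dendritic cells that activated T cells also make, at 74.1, 128 and 41.6 CPM. Tbx21, which encodes the Th1 factor T-bet, was at 85.8, 87.7 and 76.9 CPM and hardly differed. The lower genes were Maf, a driver of interleukin 10, at 31.5, 9.74 and 2.12 CPM, and Gata3, the Th2 factor, at 75.1, 49.2 and 33.8 CPM. Maf was highest in the vehicle library and near 0 in the young one.

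Helper cytokine genes were lower more often than higher, in 9 against 3 of 24 cases (median −0.47), and in 13 against 1 with scaling to T cell identity. Il10, an inhibitory cytokine, was at 43.7 CPM in the vehicle, 13.2 CPM in the fumarate and 1.83 CPM in the young library. Il17a and Il17f, the Th17 cytokines, were at 22.4, 10.3 and 0.951 CPM and at 29.8, 9.82 and 1.81 CPM, and Il13, a Th2 cytokine, at 119.8, 78.4 and 7.47 CPM. All of these were highest in the vehicle and lowest in the young library, with fumarate between. Il2, the growth factor of activated T cells, was at 20.8, 9.91 and 24.0 CPM, so there the fumarate library was the low one. The higher genes were Il16 (25.4 and 38.9 CPM) and the lymphotoxin genes Lta (146 and 225 CPM) and Ltb (20.2 and 40.3 CPM). Tnf, at 27.3 and 29.1 CPM, was within 1.5-fold.

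Of 21 inhibitory receptor and exhaustion genes, 5 were lower and 1 higher (median −0.25), against 8 lower and 0 higher with scaling to T cell identity. Havcr2, which encodes TIM-3, was at 49.2 CPM in the vehicle, 25.2 CPM in the fumarate and 2.56 CPM in the young library, Lag3 at 164, 99.8 and 129 CPM, and Ctla4 at 172, 103 and 162 CPM. Lag3 and Ctla4 had young levels above the fumarate ones, while Havcr2 was low in the young library. Cd274, which encodes the ligand PD-L1, was at 123 and 102 CPM, and Tox, an exhaustion factor, at 9.62 and 6.57 CPM, both within 1.5-fold. Nr4a3, a factor induced by receptor signals, was higher, at 101, 156 and 517 CPM. Regulatory T cell genes were lower in 7 and higher in 1 of 15 cases (median −0.51). Foxp3, the defining factor of these cells, was at 4.11, 1.54 and 1.04 CPM, and the higher gene was Ikzf4, at 30.3 and 46.3 CPM. Il2ra, the high-affinity interleukin 2 receptor chain shared by regulatory and activated cells, was at 1532 and 2086 CPM.

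Receptors of costimulation, cytokines and homing mostly lay within 1.5-fold as deposited. Of 22 costimulatory genes, 2 (5 with scaling to T cell identity) were lower and 1 higher, the higher one being Tnfrsf8, which encodes CD30, at 145 CPM in the vehicle, 264 CPM in the fumarate and 16.8 CPM in the young library. Of 24 cytokine receptor and signal inhibitor genes, 4 were lower and 2 higher, against 6 lower and 0 higher with scaling to T cell identity. Il12rb2, the signalling chain of the interleukin 12 receptor, was at 482, 806 and 437 CPM, and Il2rb, the interleukin 2 receptor beta chain, at 883 and 1314 CPM. Csf2rb, the beta chain of the interleukin 3, interleukin 5 and GM-CSF receptors, was at 536, 44.0 and 0.651 CPM, and its copy Csf2rb2 at 399.6 and 31.4 CPM; the division of reads between them is uncertain. Among 19 chemokine receptor and homing genes 3 were lower and 2 higher, against 7 lower and 0 higher with scaling to T cell identity (median −0.17). S1pr1, the receptor for exit from lymphoid organs, was at 46.3, 71.9 and 18.3 CPM, and Ccr1, a receptor of myeloid cells, at 13.8, 3.97 and 0.293 CPM.

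Naive and memory genes were higher in 4 and lower in 4 of 23 cases (median 0.18), against 4 lower and 1 higher with scaling to T cell identity (median −0.038). Tcf7, which encodes the naive and memory factor TCF-1, was at 93.3 CPM in the vehicle, 149.6 CPM in the fumarate and 167 CPM in the young library, and Lef1, its relative, at 77.5 and 109.6 CPM. Klf2, a factor of resting T cells, was lower, at 10.8 and 5.85 CPM, as was Bcl6, the follicular helper factor, at 2.95 and 1.52 CPM. Early genes of receptor signalling lay mostly within 1.5-fold (24 of 27), with Egr1, an immediate early factor, at 83.9, 37.4 and 36.4 CPM, and Cd69, the early activation antigen, at 159 and 133 CPM.

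**Figure D4:**
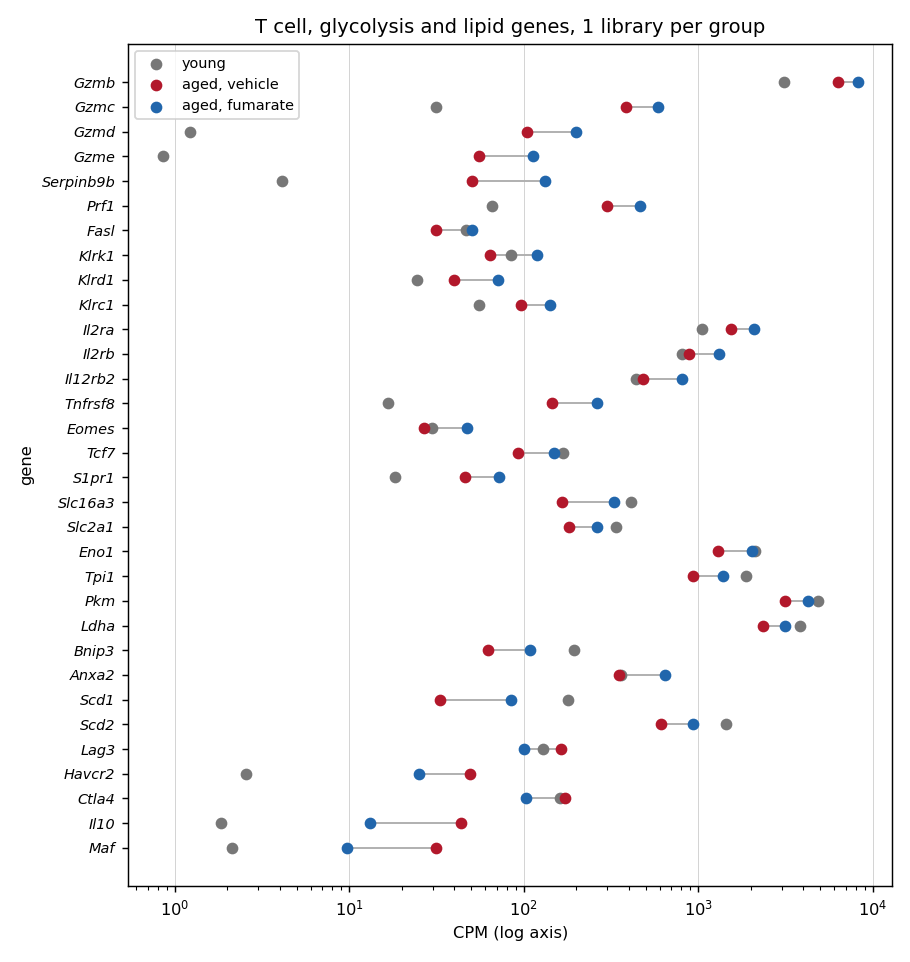
CPM of 32 T cell, glycolysis and lipid genes (log axis) in the aged vehicle (red), aged fumarate (blue) and young (grey) library, 1 point per library, with a line joining the aged pair; the genes were picked after their values were seen. From Gzmb to Scd2 the blue point lies right of the red one, by as little as 0.38 for Gzmb on the log2 scale, and for the last 5 genes, Lag3 to Maf, it lies left.

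Glycolysis genes were higher in sum, whereas most single members were within 1.5-fold. The 25 genes summed to 13349 CPM in the vehicle, 17703 CPM in the fumarate and 21289 CPM in the young library, with a median log2 ratio of 0.31 that fell to 0.095 with scaling to T cell identity. At 1.5-fold 4 were higher and 4 lower, and with that scaling 1 was higher and 4 lower. Slc16a3, the lactate exporter MCT4, was at 166 CPM in the vehicle, 328 CPM in the fumarate and 414 CPM in the young library, Eno1, an enolase, at 1298, 2028 and 2112 CPM, and Pkm, the muscle-type pyruvate kinase, at 3124, 4234 and 4843 CPM. For all 3 the vehicle library was the low one. Slc2a3, the neuronal-type glucose transporter GLUT3, went the other way, at 194, 83.4 and 220.2 CPM, and so did Hk3, a hexokinase of myeloid cells, at 15.3, 2.09 and 0.317 CPM.

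Hypoxia and HIF target genes were mixed, with 2 higher and 5 lower of 28 (median 0.18, or −0.032 with scaling to T cell identity). Bnip3, a mitophagy receptor induced by hypoxia, was at 62.4 CPM in the vehicle, 109 CPM in the fumarate and 194 CPM in the young library, and Anxa2, an annexin, at 351, 648 and 359.7 CPM. Car9, a carbonic anhydrase, was at 2.38 and 0.505 CPM. The 21 genes listed for dioxygenases that use oxygen and 2-oxoglutarate, the enzyme class that fumarate can inhibit, were all within 1.5-fold at the transcript level (median −0.094). Kdm5b, a histone demethylase, was at 54.0 and 41.8 CPM. P4hb, at 767 and 690.1 CPM, encodes the non-catalytic subunit of collagen prolyl hydroxylase and is not a dioxygenase itself.

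Enzymes that make or use fumarate differed little. Of 18 genes in the list of these enzymes, 1 was lower and 0 higher (median −0.01, of either sign depending on the scaling). Fh1, which encodes fumarate hydratase, was at 68.1 CPM in the vehicle, 65.9 CPM in the fumarate and 96.3 CPM in the young library, a log2 ratio of −0.046 (interval of the plain ratio −0.17 to 0.08). Sdhb, the iron-sulfur subunit of succinate dehydrogenase, was at 102, 106 and 119.6 CPM. Asl, the argininosuccinate lyase of the urea cycle, was at 32.2 and 27.7 CPM, and Adsl, the adenylosuccinate lyase of purine synthesis, at 135 and 155 CPM. The lower gene was Adssl1, at 5.79 and 1.95 CPM. It encodes an adenylosuccinate synthase, which was in the list but neither makes nor uses fumarate itself. In the remaining tricarboxylic acid cycle 25 of 27 genes were within 1.5-fold, with Idh1, the cytosolic NADP-dependent isocitrate dehydrogenase, lower at 28.0, 8.23 and 10.6 CPM and Pdk1, the kinase that shuts pyruvate dehydrogenase, higher at 65.1, 102 and 211 CPM.

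Respiratory chain genes were flat. All 36 nuclear genes of complexes I and II and all 34 of complexes III, IV and V were within 1.5-fold (medians −0.019 and −0.037, both above 0 with TMM scaling). The 13 mitochondrially encoded transcripts were within 1.5-fold too, though 3 passed it with scaling to T cell identity, and each was lower (median −0.26), and they summed to 18314, 15243 and 11642 CPM in the vehicle, fumarate and young libraries. The largest difference among them was in mt-Nd3, a complex I subunit, at 143 and 101 CPM. Genes of mitochondrial biogenesis and dynamics (19) and of fatty acid oxidation (21) had 0 members lower and 0 higher (2 of fatty acid oxidation were lower with scaling to T cell identity), with Cpt1a, the carnitine palmitoyltransferase of the outer membrane, at 50.3 and 38.9 CPM. Mitophagy and autophagy genes were lower in 5 and higher in 1 of 23 cases (median −0.25), against 8 lower and 0 higher with scaling to T cell identity. Lower members were Pink1, the kinase that marks damaged mitochondria, at 23.2 CPM in the vehicle, 13.1 CPM in the fumarate and 19.0 CPM in the young library, and Optn, an autophagy receptor, at 12.7, 5.27 and 4.05 CPM.

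Among lipid genes, 26 of 28 genes of cholesterol and fatty acid synthesis were within 1.5-fold. The other two were the stearoyl-CoA desaturases, which place the double bond in oleate: Scd1 was at 33.1 CPM in the vehicle, 84.2 CPM in the fumarate and 178 CPM in the young library, a log2 ratio of 1.32 (interval of the plain ratio 1.202 to 1.49), and Scd2 at 608, 937 and 1445 CPM. Both were lowest in the vehicle and highest in the young library. Among 11 LXR targets and export genes, Abca1, the cholesterol exporter, was higher, at 2.14, 8.66 and 6.03 CPM, and Apoe lower, at 7.12 and 3.61 CPM.

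Genes of the NRF2 response, which fumarate can raise through KEAP1, were lower in the fumarate library. Of 30, 14 were lower and 0 higher (median −0.50), and their summed level was 5382 CPM in the vehicle, 4229 CPM in the fumarate and 3606 CPM in the young library. Nqo1, a quinone reductase, was at 33.7 CPM in the vehicle, 4.91 CPM in the fumarate and 1.76 CPM in the young library, and Gclm, the modifier subunit of glutamate-cysteine ligase, at 178, 49.6 and 43.7 CPM. Slc7a11, the cystine importer, was at 22.9, 3.72 and 5.24 CPM, and Srxn1, which restores oxidised peroxiredoxins, at 96.6, 34.0 and 12.4 CPM. For all 4 genes the vehicle library was high and the fumarate library nearer the young one. Gclc, the catalytic partner of Gclm, was at 50.6, 37.3 and 38.1 CPM, and Hmox1, heme oxygenase 1, at 23.8, 15.9 and 10.8 CPM, log2 ratios of −0.43 and −0.56 that are both within 1.5-fold. Txn1, thioredoxin, and Prdx1, a peroxiredoxin, were at 381 and 447 CPM and at 276 and 276 CPM. Within 1.5-fold were 16 members, among them these last.

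The promoter of Gclm in RefSeq (GRCm38.p6) is shown because it holds 1 match to the antioxidant response element letters TGACNNNGC, 134 bases before the start on the reverse strand, in capitals.
Gclm, chr3:122245307-122245556, plus strand: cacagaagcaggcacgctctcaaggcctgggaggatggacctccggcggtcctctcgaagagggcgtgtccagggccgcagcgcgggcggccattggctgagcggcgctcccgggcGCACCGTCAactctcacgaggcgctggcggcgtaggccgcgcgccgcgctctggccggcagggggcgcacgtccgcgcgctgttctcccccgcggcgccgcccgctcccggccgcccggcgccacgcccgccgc
The letters were in 10 of 26 NRF2 target promoters, against 14.0% of all RefSeq promoters and 16.8% of those of genes in the table. The share was 18.4% for genes 1.5-fold lower, 14.7% for those 1.5-fold higher and 16.8% for those within 1.5-fold.

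Among the regulators, Nfe2l2, which encodes NRF2, was at 101 CPM in the vehicle, 52.2 CPM in the fumarate and 48.4 CPM in the young library, and Keap1 at 119, 114 and 115 CPM. Bach1, the repressor that competes with NRF2 at these sites, was at 29.4, 7.36 and 7.37 CPM, and Nfe2, a relative of NRF2 that drives platelet formation, at 73.5, 6.64 and 0.342 CPM. Keap1 was within 1.5-fold, and the other genes were lower with fumarate. The other-lineage markers given above were lower beside these genes, and their part was not tested. Peroxide and superoxide genes were lower in 4 and higher in 1 of 19 cases (median −0.19), led by Cybb, the catalytic subunit of the phagocyte NADPH oxidase, at 9.67, 0.577 and 0.610 CPM. Prdx6, a peroxiredoxin, was at 202, 136 and 133 CPM, and Gpx1, a glutathione peroxidase, at 393 and 312 CPM.

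Iron and heme genes were lower for 5 of 21 members and higher for 0 (median −0.23), against 9 lower and 0 higher with scaling to T cell identity. Ftl1 and Fth1, the ferritin chains, were at 1059, 653 and 407 CPM and at 784, 605 and 365 CPM, and Tfrc, the transferrin receptor, at 729.9, 876 and 921 CPM. Ferritin was thus highest in the vehicle library and the receptor lowest there, though of these genes Ftl1 alone was past 1.5-fold. Steap3, the iron reductase of red cell precursors, was at 22.995, 1.95 and 1.27 CPM. Lysosome genes were lower in 6 of 27 cases (median −0.27), with Cd63, a tetraspanin of granules and lysosomes, at 75.6, 9.50 and 1.24 CPM, Hexa, a hexosaminidase subunit, at 53.5, 22.4 and 21.5 CPM, and Ctsd, cathepsin D, at 437, 314 and 147 CPM.

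Division genes were close to equal. None of 38 replication genes and none of 34 mitosis genes was past 1.5-fold, with medians of 0.18 and 0.17 that turned to −0.035 and −0.044 with scaling to T cell identity. Pcna, the replication clamp, was at 318 and 405 CPM, and Rrm2, a ribonucleotide reductase subunit in the nucleotide list, at 310.3 and 407 CPM. The nucleotide and polyamine list had a median of 0.15, or −0.059 with that scaling, and 0 members past 1.5-fold. All 81 cytosolic and 78 mitochondrial ribosomal protein genes, 31 proteasome genes and 20 aminoacyl-tRNA synthetases were within 1.5-fold. MYC and ribosome biogenesis genes had 1 of 26 lower, the MYC antagonist Mxd4, at 28.7 and 17.0 CPM. Heat shock genes had 1 of 19 higher, the factor Hsf2, at 29.4 and 46.8 CPM, and the unfolded protein response 1 of 24 lower, the chaperone Dnajb9, at 17.6 and 11.4 CPM. With scaling to T cell identity 0 heat shock genes were higher and 2 lower, and 4 genes of the unfolded protein response were lower.

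Stress and death genes had a few lower members. Of 23 p53 targets and cell cycle inhibitors, 5 were lower and 0 higher (median −0.19), against 8 lower and 0 higher with scaling to T cell identity. Cdkn2a, the locus of the senescence-associated inhibitors p16 and p19, was at 13.6 CPM in the vehicle, 5.27 CPM in the fumarate and 0.512 CPM in the young library, so it was high in the vehicle and near 0 in the young library. Gadd45a, a growth arrest gene, was at 15.2, 7.49 and 7.17 CPM, and Bbc3, which encodes the death protein PUMA, at 35.9, 20.9 and 31.4 CPM. Of 33 ATF4 and amino acid genes 6 were lower and 0 higher (median 0.055, or below 0 with scaling to T cell identity). Slc7a11, also an NRF2 target, led them, and Ddit3, the stress factor CHOP, was at 20.04, 11.04 and 32.1 CPM. Phgdh, which starts serine synthesis, was at 176, 226 and 401 CPM. Bcl2, the survival gene, was at 180.4 and 238 CPM. In its family 2 of 17 members were lower, a share near the 11.8% of all genes. With scaling to T cell identity 5 were lower, against 2257 of all 13815 genes with a mean of at least 1 CPM.

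**Figure D5:**
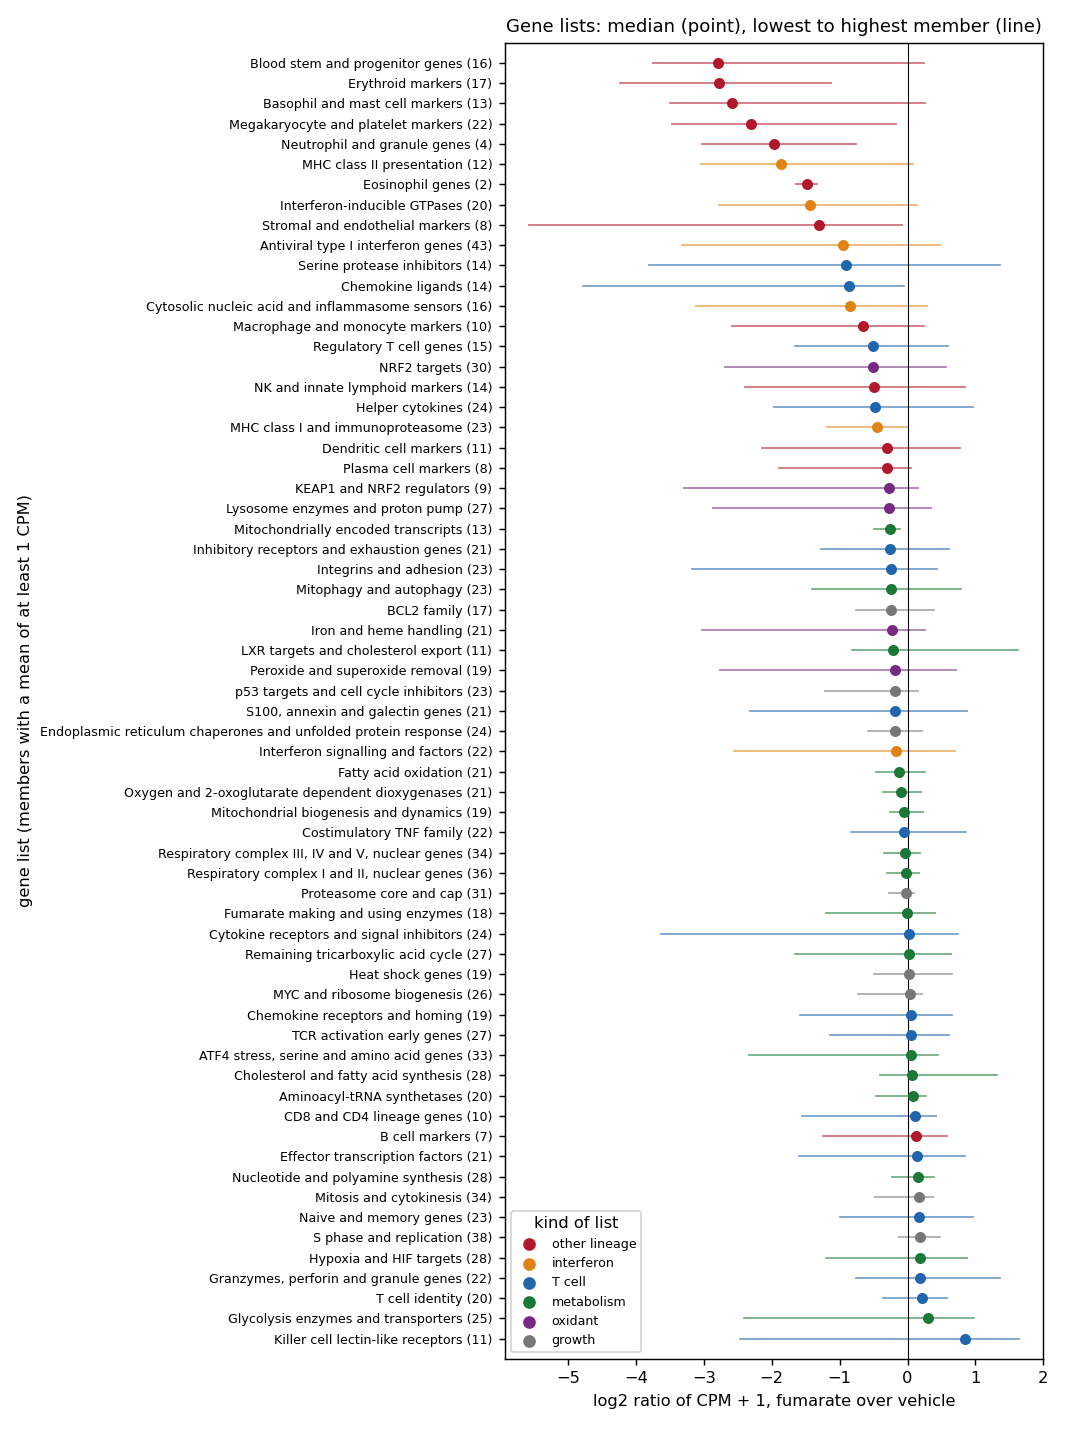
Median log2 ratio of CPM + 1, fumarate over vehicle (point), and lowest to highest member (line) for the 64 gene lists, with the number of members of at least 1 CPM after each name; colours give the kind of list. Medians run from −2.80 for blood stem and progenitor genes to 0.85 for killer lectin receptors; of the 21 above 0, 17 fall below 0 with scaling to T cell identity, among them granzymes, CD8 and CD4 lineage, S phase and mitosis genes.

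Several further families had more lower than higher members. Serine protease inhibitors were lower in 7 and higher in 1 of 14 cases (median −0.91, or −0.096 when only genes averaging 10 CPM or more enter and −0.40 with 5 CPM added in place of 1). Serpina3g, an intracellular inhibitor of cathepsins, was at 929 CPM in the vehicle, 65.3 CPM in the fumarate and 23.1 CPM in the young library, a log2 ratio of −3.81 (interval of the plain ratio −3.93 to −3.73), and in its cluster of copies on chromosome 12 (104214544 to 104269372) 4 of 4 genes with a mean of at least 1 CPM were lower. Those copies are near-identical, so single members are uncertain. Integrin and adhesion genes were lower for 9 of 23 members and higher for 0. Itga6, the laminin receptor chain, was at 188, 41.3 and 35.0 CPM, and Itga4, the chain of VLA-4, at 67.3, 36.1 and 34.9 CPM, while Itgal, the chain of the T cell integrin LFA-1, was at 342, 382 and 356 CPM. Of 21 S100, annexin and galectin genes 7 were lower and 1, Anxa2, higher. The lower ones included Lgals9, which encodes galectin 9, at 181, 55.4 and 95.8 CPM, and S100a4 at 25.9, 10.9 and 2.37 CPM. Vim, the intermediate filament vimentin, was at 2906 and 4055 CPM and Lgals1, galectin 1, at 924 and 1185 CPM, both within 1.5-fold.

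The single genes with the lowest ratios were of many kinds. Igfbp5, a binding protein of insulin-like growth factors, was at 46.5 CPM in the vehicle library and listed at 0 in the others, at least 215-fold lower against the limit of 3 reads in the fumarate library. Sprr2a2, an epithelial small proline-rich protein, was at 74.4 CPM in the vehicle, 1.15 CPM in the fumarate and 0 CPM in the young library. Aldh1a1, a retinaldehyde dehydrogenase, was at 85.6, 5.49 and 0.0488 CPM, and Gsta2, a glutathione transferase, at 19.5, 0.361 and 0 CPM. Ptgs1 and Ptgs2, the cyclooxygenases, were at 111, 9.60 and 0.317 CPM and at 31.2, 1.59 and 0.781 CPM. Timp3, an inhibitor of metalloproteinases, was at 478, 42.6 and 2.06 CPM. Muc13, a mucin of progenitors and epithelia, was at 128, 8.59 and 0.317 CPM. All of these were at 2.06 CPM or less in the young library.

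Among the highest ratios, Flrt3, a membrane protein of cell adhesion, was at 2.20 CPM in the vehicle, 8.88 CPM in the fumarate and 0.732 CPM in the young library, and Neb, a giant muscle protein, at 11.5, 32.8 and 12.1 CPM. Dlg5, a polarity scaffold, was at 5.04, 15.3 and 0.927 CPM, and Lrp1, a large endocytic receptor, at 10.4, 26.1 and 6.64 CPM. Clec2i, a ligand of killer lectin-like receptors encoded beside them, was at 6.55, 20.1 and 7.002 CPM, and Ly6c1, a memory T cell surface protein, at 5.23, 16.6 and 9.68 CPM. For each of these 6 genes the fumarate library was the high one. Exosc6 and Rn7s2 headed the ranking with 0.00850 and 4.07 CPM and with 0.0699 and 3.97 CPM, values below or near what whole reads allow in the vehicle library (1 read is worth 0.0579 CPM there), so their ratios are uncertain.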

How the data were processed

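Polyadenylated RNA of cultured spleen T cells was sequenced from libraries of 500 ng RNA (SMARTER mRNA kit, per the labels' protocols). STAR, Partek and mm10 are named in the submitters' processing notes. Tool versions and strandedness were not given in the sources used here, which leaves genes that overlap in antisense inseparable. Although called raw counts, the values deposited by the authors are CPM, with a sum of 1000000 per library. The worth of 1 read was recovered from the step of low values, and 65.7% of vehicle and 68.1% of fumarate values were whole reads (tolerance 0.02 reads). The others look shared between genes, so no count model was fitted. Groups were taken from the titles, and every column had a sample. Of the gene symbols, 17355 of 17796 were in GENCODE M21.

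Differences are log2 ratios of CPM + 1, with a limit of 2-fold for all genes and 1.5-fold with a mean of at least 1 CPM for 64 gene lists. A value of 0 allows up to 3 reads (0.217 CPM in the fumarate library). The gene lists and the comparison were chosen with earlier results of these data known. Named genes are the 40 lowest and 20 highest ratios, 8 members of each list by size of ratio, the 2 members with the highest mean, key genes, and all members of lists of at most 12. Genes outside that rule, chosen after their values were seen, are Actb, Adgre1, Alox5, B2m, C1qb, Ccl4, Ccl5, Cgas, Cpa3, Ermap, F2r, Gbp2, Gbp8, Gfi1b, Gzma, Gzmc, Ifi27l2a, Ighm, Igkc, Il13, Il16, Irgm1, Isg15, Lef1, Lta, Phgdh, Prdx1, Psmb8, Selp, Slamf1, Slfn1, Tnf and Txn1. Promoter windows ran from 250 bases before to 50 after the start, and 11186 genes of the table have one. Alternatives were other scalings, added constants, minimum levels, gene sets, depth and fold limit; list counts under other scalings were added after seeing the data. The software was Python 3.11.15 with pandas 2.3.3, numpy 2.4.6, matplotlib 3.10.9 and scipy 1.17.1.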

Additional observations from a re-analysis of the deposited data

How the results depend on the processing

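No paired analysis was possible because each group has 1 library, and for the same reason no library could be left out. The 1045 genes at least 2-fold lower became 489 with 5 CPM added, 382 at a mean of at least 10 CPM, 509 at 200 or more estimated reads and 539 at 3-fold. Other scalings gave 1009 to 1249. The 46 genes at least 2-fold higher became 28 with scaling to T cell identity, 116 with 0.5 CPM added, 11 with 5 CPM, 16 at a mean of at least 10 CPM, 18 at 200 or more reads and 9 at 3-fold. Of 510 list medians under alternatives, 443 moved by at most 1.5 times (by less than 0.3 for medians of size below 0.1), 57 moved further, and 10 of size 0.1 or more changed sign. Counting medians of any size, scaling to T cell identity took 17 of 21 from above to below 0, and TMM, median of ratios and upper quartile scaling took 4, 4 and 6 of 43 from below to above it. Scaling to T cell identity shifted the median of all genes from −0.027 to −0.23 and set its own list to 6.54e-06. It turned CD8 and CD4 lineage (−0.11), granzymes (−0.021), naive and memory genes (−0.038), effector factors (−0.068), HIF targets (−0.032), nucleotide synthesis (−0.059), S phase (−0.035) and mitosis (−0.044) to values below 0, and brought glycolysis to 0.095. At a mean of at least 10 CPM the macrophage list was at 0.077 and the NK list at 0.037, since fewer genes enter. Erythroid markers were at −1.80 with 5 CPM added. Apart from scaling, the causes were not tested. The depth of 13.9 M reads limits genes below 1 CPM, and no setting here speaks to the spread between mice.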

Other observations

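Antigen receptor genes differed by kind. Of 39 T cell receptor V segments with a mean of at least 1 CPM, 6 were at least 1.5-fold higher and 0 lower in the fumarate library (median log2 ratio 0.16), whereas 7 of 9 immunoglobulin V segments were lower (median −1.89). Of all 55 immunoglobulin V segments, 50 were under 1 CPM in the fumarate library and 34 in the vehicle, and the median over the 55 was −0.67. GIMAP GTPases, small GTPases of lymphocyte survival, had 1 of 9 members higher and 0 lower (median 0.25). Among 141 long intergenic noncoding RNAs with a mean of at least 1 CPM, 16 were lower and 11 higher, against 11.8% and 2.18% of all genes.

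The granzyme cluster on chromosome 14 (56082166 to 56262260) held both directions within one stretch: of 8 genes, the basophil protease gene Mcpt8 (86.7 and 18.9 CPM in the vehicle and fumarate libraries) and the neutrophil gene Ctsg (44.8 and 4.62 CPM) were lower, and Gzmc (386 and 586 CPM), Gzmd, Gzme and Gzmg were higher. Ranked by the difference in CPM in place of the ratio, a ranking chosen after the values were seen, the genes that gained most were Gzmb (6290.5 and 8201 CPM), Actb, a cytoskeletal actin (5317 and 7019.6 CPM), Vim (2906 and 4055 CPM) and Pkm (3124 and 4234 CPM). Those that lost most were Serpina3g (929 and 65.3 CPM), Csf2rb (536 and 44.0 CPM) and Itgb3 (566 and 99.8 CPM). F2r, the thrombin receptor, was at 510.2 CPM in the vehicle, 82.1 CPM in the fumarate and 22.3 CPM in the young library, and Alox5, the 5-lipoxygenase of myeloid cells, at 155 CPM in the vehicle, 17.3 CPM in the fumarate and 0.268 CPM in the young library.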
